A study of Schizosaccharomyces pombe with 6 samples.

Results

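The mug147 locus is a 36 kb window on chromosome II of fission yeast (Schizosaccharomyces pombe) that holds the gene mug147, its neighbour SPBC56F2.05C and, in the space between them, the glutamate tRNA gene SPBTRNAGLU.08, which are 3 of the 5284 annotated protein-coding and tRNA genes. Every genomic probe centred at chrII:4090000-4126000 was taken, which gave 128 of the 42707 genomic probes on the array, of which 42641 are nuclear. The locus was chosen because the Rad52 ratios there differed between the strains, so the ratios below describe it and carry no test. Rad52 was immunoprecipitated with its DNA and read on 2-colour tiling arrays (ChIP-on-chip), with the immunoprecipitate (IP) in the green channel and the input DNA in the red. Both groups carried cdc25-22, a temperature-sensitive allele of the phosphatase gene that lets cells enter mitosis. One group, ∆rad3 cdc25-22, was also deleted for rad3 (n = 3 arrays), and the other, cdc25-22, was not (n = 3 arrays). Both were synchronised by 4 h at the restrictive 36.5 °C and a return to 25 °C, after which hydroxyurea (HU) was added to 6 mM, and no untreated, unreleased or control immunoprecipitate was part of the comparison. The labels do not say that the 3 arrays of a strain came from separate cultures, so every p-value here measures only the spread between these arrays.

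Rad52 is the mediator of homologous recombination, which acts on single-stranded DNA and anneals complementary strands, and it gathers where replication forks break or stay stalled. Rad3 is the fission yeast ATR kinase, the sensor kinase of the replication checkpoint, and HU blocks ribonucleotide reductase and so starves replication of nucleotides. Genes for tRNA, read by RNA polymerase III, are known in yeasts as places where forks pause, and fission yeast replication origins lie mostly in AT-rich DNA between genes. The mug genes were named for transcripts that rise in meiosis, and mug147 has no product described in the annotation beyond its name.

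The stretches below carry the shape of the signal, and their sequences come from the RefSeq assembly ASM294v3, plus strand, 5′ to 3′. Capitals mark runs of at least 10 A or T bases in the 200-base stretches, and the core of the B box, the internal promoter element bound by the polymerase III factor TFIIIC, in the tRNA gene. The left maximum is centred on the probe with the highest ∆rad3 cdc25-22 mean between mug147 and the tRNA gene, lies at chrII:4106840-4107039 inside the long non-coding RNA gene SPNCRNA.6440, and holds no such run. The tRNA gene lies at chrII:4107639-4107710, read from the plus strand, with the non-coding gene SPNCRNA.1669 on the minus strand across it. The right maximum, between the tRNA gene and SPBC56F2.05C, lies at chrII:4109037-4109236 inside SPNCRNA.1669 and SPNCRNA.1670.
left maximum: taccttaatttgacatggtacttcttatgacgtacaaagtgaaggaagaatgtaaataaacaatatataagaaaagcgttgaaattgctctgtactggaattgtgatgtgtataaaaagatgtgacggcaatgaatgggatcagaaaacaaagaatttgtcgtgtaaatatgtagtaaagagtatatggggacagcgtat
SPBTRNAGLU.08: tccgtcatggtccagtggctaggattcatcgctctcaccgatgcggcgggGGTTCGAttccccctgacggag
right maximum: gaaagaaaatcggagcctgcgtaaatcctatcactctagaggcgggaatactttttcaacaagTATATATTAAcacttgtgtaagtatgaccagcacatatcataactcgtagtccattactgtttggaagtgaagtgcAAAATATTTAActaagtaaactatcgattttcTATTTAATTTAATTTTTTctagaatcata
The left and right maxima were 67% and 68.5% A+T, shares that 32.1% and 24.0% of 62858 windows of 200 bases on the 3 chromosomes reached, and 52.7% of windows held at least 1 run of 10 A or T bases. The B box was searched as its core GGTTCGA on both strands and stood in the tRNA gene at chrII:4107689-4107695 on the plus strand. It was found in 101 of 171 annotated tRNA genes (59.1%) and in 680 of 174606 windows of 72 bases (0.389%).

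The scanner files went against their labels, which decides the direction of every value below. Of the 6 files, 5 equalled a column of the deposited value table on all 42641 nuclear probes within 0.001 on the log2 scale, but 4 of these equalled the column of the other strain: replicates 1 and 2 of each strain were exchanged. The file of cdc25-22 replicate 3 equalled no column, and it was kept under the sample that lists it. Of the 33 probes in rad3, 9, 10 and 9 were not well above background in either channel on the arrays placed as ∆rad3 cdc25-22, against 0, 0 and 0 on those placed as cdc25-22. Ratios are log2 of IP over input, with the median of the genomic probes of each array set to 0. The input was dim on 1 array, ∆rad3 cdc25-22 replicate 2, with 84.9% of its probes well above background, against 96.5% to 99.8% on the other arrays, and IP ranged from 94.6% to 99.4%. In the window, 119 of the 128 probes were measured on all 6 arrays, and 9 were dropped as outlier spots on cdc25-22 replicate 3, against 0 or 1 on each other array. Although the design text speaks of reciprocal labelling, IP and input kept the same dyes on all 6 arrays, and a bias of a probe toward 1 dye remains in its strain mean.

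In ∆rad3 cdc25-22 cells Rad52 covered the central part of the window in a broad domain with 2 maxima, and in cdc25-22 cells the same DNA averaged near the array median, with its highest bin at the tRNA gene. Over the whole window the mean ratio was 0.41, 0.30 and 0.34 on the ∆rad3 cdc25-22 arrays, against 0.05, 0.06 and 0.01 on the cdc25-22 arrays. The ranges did not overlap, and the strain means were 0.35 ± 0.05 in ∆rad3 cdc25-22 and 0.04 ± 0.03 in cdc25-22 (SD, n = 3 each), a difference of 0.31. In 1 kb bins, those with a ∆rad3 cdc25-22 mean of at least 0.5 ran from 4103001 to 4113000, where 9 bins were measured. The bin 4104001 to 4105000 inside this domain had 3 probes but only 1 measured on cdc25-22 replicate 3, and was left out. The domain averaged 1.53, 1.63 and 1.92 in ∆rad3 cdc25-22, against -0.04, 0.19 and 0.03 in cdc25-22. The means were 1.69 ± 0.20 in ∆rad3 cdc25-22 and 0.06 ± 0.12 in cdc25-22 (SD, n = 3 each), a difference of 1.63.

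**Figure D1:**
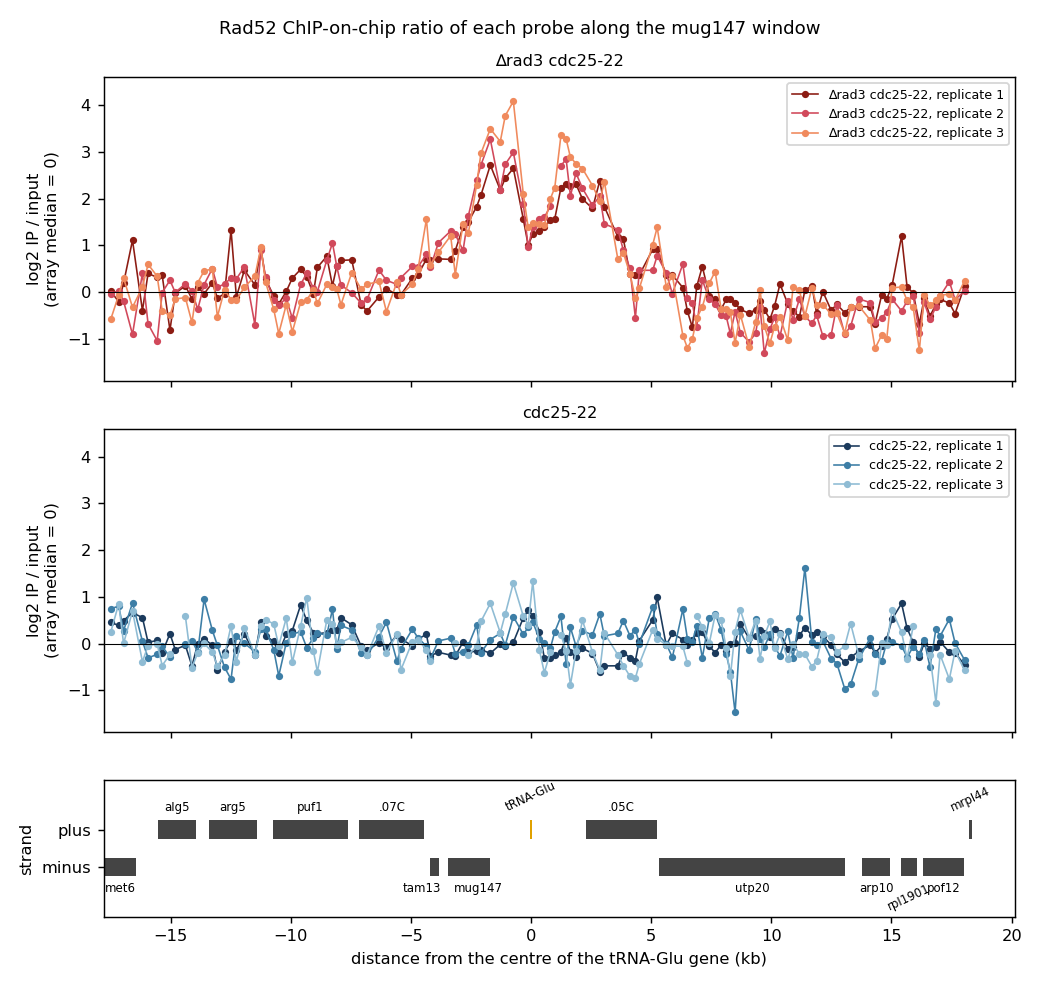
Log2 IP over input of each probe (vertical axis, array median at 0) by distance from the centre of the tRNA gene in kb, with ∆rad3 cdc25-22 arrays above, cdc25-22 arrays below them and the annotated genes at the bottom. The ∆rad3 cdc25-22 arrays form maxima on both sides of the tRNA gene, with bin means of 2.92 and 2.51, and the highest cdc25-22 bin mean, 0.58, lies at the tRNA gene.

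The left maximum of the domain lay at the 5′ end of mug147 and in the space beside it. In the bin 4106001 to 4107000 the ratio was 2.42, 2.64 and 3.69 in ∆rad3 cdc25-22, against -0.02, 0.25 and 0.72 in cdc25-22. This bin had the highest ∆rad3 cdc25-22 mean, 2.92 ± 0.68, of all 11906 bins of the array, against 0.32 ± 0.37 in cdc25-22 (SD, n = 3 each). The bin next to it, 4105001 to 4106000, which covers the 5′ end of mug147, reached 2.03, 2.50 and 2.51 in ∆rad3 cdc25-22, against -0.17, 0.06 and 0.26 in cdc25-22. Together these peak bins averaged 2.63 ± 0.44 in ∆rad3 cdc25-22 and 0.18 ± 0.29 in cdc25-22 (SD, n = 3 each). The probe with the highest mean, 698 bp from the tRNA gene, stood at 2.65, 2.99 and 4.08 in ∆rad3 cdc25-22, against 0.03, 0.58 and 1.30 in cdc25-22. It was the highest on ∆rad3 cdc25-22 replicate 3, whereas replicates 1 and 2 were highest at the probe centred at 4105982, across the 5′ end of mug147. That probe stood at 2.72, 3.27 and 3.49 in ∆rad3 cdc25-22, against -0.21, 0.09 and 0.86 in cdc25-22, a difference of 2.91 beside 2.61 at the other.

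The right maximum was nearly as high and lay farther from the tRNA gene. In the bin 4109001 to 4110000 the ratio was 2.22, 2.42 and 2.89 in ∆rad3 cdc25-22, against -0.11, 0.03 and -0.18 in cdc25-22. The arrays of the strains were far apart in it, and the difference of 2.59 ranked 5 of 11906 bins, next to 2.60 and rank 4 for the left maximum. Its highest probe, 1427 bp from the tRNA gene, averaged 2.81 ± 0.48 in ∆rad3 cdc25-22 and -0.16 ± 0.27 in cdc25-22 (SD, n = 3 each). From there the signal declined through 1.996 and 0.82 to 0.51 in the ∆rad3 cdc25-22 means of the next 3 bins, over SPBC56F2.05C, where the cdc25-22 means were -0.09, -0.17 and 0.14.

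Between the maxima, at the tRNA gene, the ∆rad3 cdc25-22 signal dipped and the cdc25-22 signal had its highest bin of the window. In the bin 4107001 to 4108000 the ratio was 1.27, 1.42 and 1.65 in ∆rad3 cdc25-22, against 0.62, 0.34 and 0.77 in cdc25-22. The groups did not overlap, but their difference of 0.87 was the smallest of the 7 bins from 4105001 to 4112000. On the other side of it, the bin 4108001 to 4109000 stood at 1.88 ± 0.25 in ∆rad3 cdc25-22 and -0.06 ± 0.20 in cdc25-22 (SD, n = 3 each).

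The summit, taken as the highest running mean of 5 adjacent probes, was 2.41, 2.78 and 3.51 high on the ∆rad3 cdc25-22 arrays and lay at 4106397 on each of them. On the cdc25-22 arrays the highest running mean was 0.51 and 0.55 at 4090721 in replicates 1 and 2, and 0.85 at 4107355 in replicate 3. The position 4090721 is the first at which 5 probes fit in the window, so the values of replicates 1 and 2 lie at its left edge. The probe just outside that edge stood at 0.62 and 0.58 on these arrays. By the running mean only replicate 3 of that strain had its highest point near the tRNA gene. In 1 kb bins replicate 1 too was highest at the tRNA gene, at 0.62, and replicate 2 at 4090001 to 4091000, at 0.61. The mean heights were 2.90 ± 0.56 in ∆rad3 cdc25-22 and 0.64 ± 0.19 in cdc25-22 (SD, n = 3 each), the latter with the values at the edge. The width at 0.5 of the summit height over the window's outer 5 kb was 6441, 5877 and 2144 bp on the ∆rad3 cdc25-22 arrays. The short width of replicate 3 ended at the dip, where its left maximum, the highest of the 3, fell below 0.5 of its height, and the strain mean gave 5654 bp. Taken as the stretch of running means at or above 0.5 log2, the widths were 9978, 8820 and 8546 bp, which differed less between the arrays.

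Set among the rest of the genome, the domain had the highest top bin in ∆rad3 cdc25-22, while its length could be ranked only in part. The ∆rad3 cdc25-22 means held 569 runs of adjacent bins at or above 0.5, of which 93 had at least 5 bins. The run at this locus, counted from 4105001, had 8 bins, 16 runs were longer, and no run (0) had a higher top bin. It was cut there by the left-out bin 4104001 to 4105000. Beyond that bin, 4103001 to 4104000 stood at 0.83 in ∆rad3 cdc25-22, so the rank by length is not settled. By the difference between the strains the run, cut at the same bin, had 7 bins, 25 of 544 runs were longer and 2 had a higher top bin. In the limma fit over all bins, 8 of the window's 35 bins were called higher in ∆rad3 cdc25-22, where 12.3% of bins were called over the genome, and 3 were called lower, where 3.82% were called. The window was chosen on this contrast, so nothing is read from these counts or from the ranks by height.

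The 3 named genes took different parts of the domain. Mug147 (SPBC56F2.06, chrII:4104214-4105988, minus strand, 7 probes) stood at 1.59, 1.92 and 1.87 in ∆rad3 cdc25-22, against -0.17, -0.0027 and 0.21 in cdc25-22. All ∆rad3 cdc25-22 arrays lay far above all cdc25-22 arrays, with means of 1.79 ± 0.18 and 0.01 ± 0.19 (SD, n = 3 each). The difference of 1.78 ± 0.13 (SE) was the largest of the 4127 protein-coding genes in the fit. That fit left out the genes of chromosome I from 3750001 on, where probe positions did not match the assembly. SPBC56F2.05C, annotated as a transcription factor gene (chrII:4109969-4112903, plus strand, 9 probes), stood at 1.15, 0.94 and 1.05 in ∆rad3 cdc25-22, against -0.23, 0.33 and -0.31 in cdc25-22. Its difference of 1.12 ± 0.16 (SE) ranked 45 among the genes, and the groups did not overlap.

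No probe lay on SPBTRNAGLU.08 itself, so the tRNA gene was read from its flanks. The 4 probes centred within 500 bp of it averaged 1.28, 1.45 and 1.60 in ∆rad3 cdc25-22, against 0.53, 0.28 and 0.54 in cdc25-22. The group means were 1.44 ± 0.16 in ∆rad3 cdc25-22 and 0.45 ± 0.15 in cdc25-22 (SD, n = 3 each), apart by 0.995. The probe 53 bp from the gene was lowest in ∆rad3 cdc25-22, at 1.01, 0.96 and 1.39, against 0.71, 0.35 and 0.40 in cdc25-22. At the probe 9 bp past its other end the groups overlapped, with 1.23, 1.40 and 1.47 in ∆rad3 cdc25-22, against 0.60, 0.46 and 1.33 in cdc25-22. The strains drew apart again 287 bp away, at 1.44 ± 0.12 in ∆rad3 cdc25-22 and 0.07 ± 0.20 in cdc25-22, and more so 491 bp away, at 1.47 ± 0.12 and -0.31 ± 0.31 (SD, n = 3 each).

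**Figure D2:**
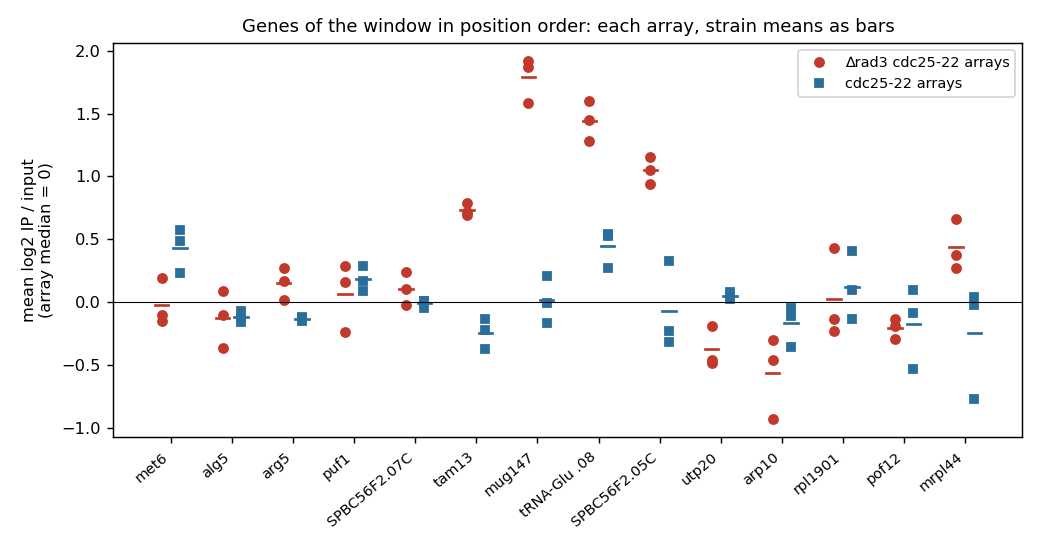
Mean log2 IP over input of all probes in each gene overlapping the window, in position order, with red circles for ∆rad3 cdc25-22 arrays, blue squares for cdc25-22 arrays and bars for the strain means. The tRNA gene uses probes within 500 bp. The red and blue points are farthest apart at mug147, where the means are 1.79 and 0.01, and they lie closer together at the genes left of tam13.

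The other genes of the window showed where the domain ended. On the left, tam13 (2 probes, too few on cdc25-22 replicate 3 for the fit), another gene named from meiotic transcripts, still stood at 0.70, 0.79 and 0.72 in ∆rad3 cdc25-22, against -0.22, -0.13 and -0.37 in cdc25-22. Beyond it, the ribosome biogenesis ATPase gene SPBC56F2.07C had means of 0.11 ± 0.13 in ∆rad3 cdc25-22 and -0.01 ± 0.03 in cdc25-22, with overlapping arrays (SD, n = 3 each). The RNA-binding protein gene puf1 and the glycosylation gene alg5 overlapped too, with differences of -0.11 and -0.0064, and the arginine synthesis gene arg5 differed by 0.28 without overlap. The methionine synthesis gene met6 crosses the left edge, with part of its 10 probes outside the window. It was lower in ∆rad3 cdc25-22, at 0.19, -0.10 and -0.15, against 0.57, 0.49 and 0.23 in cdc25-22.

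To the right of the domain the ∆rad3 cdc25-22 signal lay below that of cdc25-22. The ribosome assembly gene utp20 (chrII:4113007-4120747, 31 probes) stood at -0.19, -0.48 and -0.46 in ∆rad3 cdc25-22, against 0.08, 0.03 and 0.04 in cdc25-22. The same was seen over all 13 bins right of the domain, with means of -0.33 ± 0.14 in ∆rad3 cdc25-22 and -0.02 ± 0.06 in cdc25-22 without overlap (SD, n = 3 each), while the 13 bins to the left overlapped at 0.07 ± 0.11 and 0.09 ± 0.04. Farther right, the actin-like gene arp10, the ribosomal protein gene rpl1901 and the F-box gene pof12 overlapped between the strains, with differences of -0.39, -0.10 and -0.03. The mitochondrial ribosomal protein gene mrpl44 crosses the right edge, and its 2 probes are centred outside the window. It was higher in ∆rad3 cdc25-22, at 0.27, 0.37 and 0.66, against -0.02, -0.77 and 0.04 in cdc25-22.

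Of the 12 protein-coding genes overlapping the window in the limma fit, 3 were called higher (mug147, SPBC56F2.05C and mrpl44), where 10.6% of all genes were, and 2 lower (met6 and utp20), where 5.48% were. Genes were read from all their probes, so the calls of mrpl44 and met6 rest wholly and partly on probes outside the window. The calls of mug147 and SPBC56F2.05C held on leaving out each array in turn, whereas those of met6 and mrpl44 held in 2 and that of utp20 in 1 of these 6 fits. All 3 were lost without cdc25-22 replicate 1 or 2 and without ∆rad3 cdc25-22 replicate 2 or 3, and that of utp20 also without cdc25-22 replicate 3. Because the locus was chosen on this contrast, the calls of mug147 and SPBC56F2.05C, and their holding, describe the choice and test nothing. The window's edges cut through unequal DNA: the probe just outside the left edge averaged -0.21 in ∆rad3 cdc25-22 and 0.50 in cdc25-22, and the first inside -0.20 and 0.48. At the right edge the last probe inside averaged 0.13 in ∆rad3 cdc25-22 and -0.46 in cdc25-22, and the first outside 0.42 and -0.44.

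The domain was also visible in the input DNA, at a smaller size. Over the 31 domain probes measured on all arrays, the log2 input relative to the array median was 0.92, 1.21 and 1.04 in ∆rad3 cdc25-22, against 0.35, 0.65 and 0.57 in cdc25-22. Each ∆rad3 cdc25-22 array lay above each cdc25-22 array, with means of 1.06 ± 0.15 and 0.52 ± 0.16 (SD, n = 3 each), a difference of 0.53. The IP signal over the same probes was 2.44, 2.89 and 2.88 in ∆rad3 cdc25-22, against 0.29, 0.82 and 0.57 in cdc25-22, a difference of 2.18. The input gain enters the ratio with a minus sign, so the ratio differed by less than the IP, by 1.65 over these probes.

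Within the window the input difference lay mainly in the domain. At the peak bins the input stood at 0.49, 0.47 and 0.57 in ∆rad3 cdc25-22, against 0.01, -0.11 and -0.12 in cdc25-22. In the flanks the groups overlapped, with differences of 0.03 left of the domain and -0.07 right of it. Over 11904 bins of the genome the median input difference was -0.04 and the 95th percentile 0.33, and 8 of the 9 domain bins lay above that percentile. The bins of the domain ranged from -0.18 at its left end to 0.94 at the right maximum, where the input stood at 0.61, 0.93 and 0.91 in ∆rad3 cdc25-22, against -0.57, 0.02 and 0.16 in cdc25-22.

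**Figure D3:**
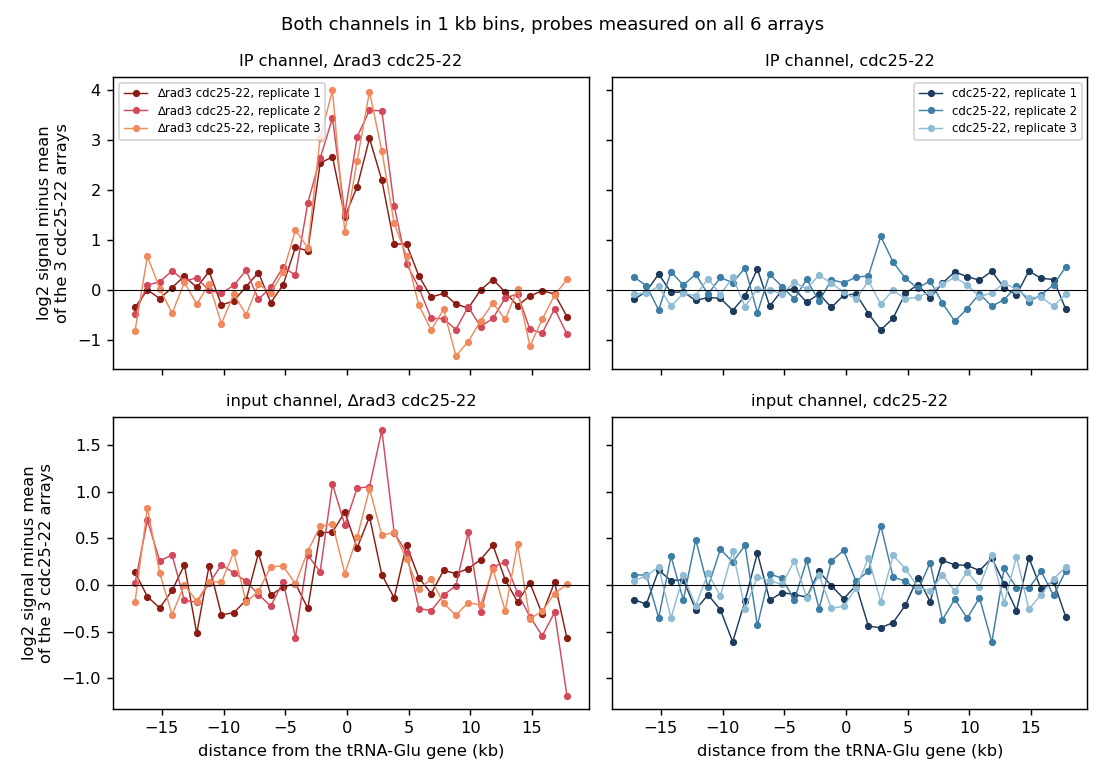
Log2 signal of the IP channel (top) and the input channel (bottom) in 1 kb bins, minus the mean of the 3 cdc25-22 arrays in that bin, by distance from the tRNA gene in kb, with ∆rad3 cdc25-22 arrays on the left and cdc25-22 arrays on the right. The vertical scales differ between the rows; the domain means differ by 2.18 in the IP and by 0.53 in the input.

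The lower ratio right of the domain came with a lower IP signal at nearly equal input. There the IP stood at -0.63, -1.04 and -1.08 in ∆rad3 cdc25-22, against -0.38, -0.65 and -0.55 in cdc25-22, a difference of -0.39 with overlapping arrays. The ranges overlapped because ∆rad3 cdc25-22 replicate 1 lay near cdc25-22 replicate 2, the array with the lowest value of its strain.

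Each slide held 1 array of each strain with the same replicate number, so the difference could be read within slides. On slides 1, 2 and 3 the ∆rad3 cdc25-22 minus cdc25-22 difference was 2.32, 2.41 and 2.61 at the peak bins. For mug147 it was 1.75, 1.92 and 1.65, and for the window mean 0.36, 0.24 and 0.33. Every slide gave the same direction, and on none was the peak-bin difference under 2.32. With the files under their listed names, which puts arrays with the dim rad3 probes in both groups, the mug147 difference was -0.67 and the peak-bin difference -0.71.

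The cdc25-22 replicate 3 column of the value table, for which no scanner file was found, gave a further reading of the locus. Its strain is known only from its label. Its highest running mean was 1.81 at 4107355, with a width of 1351 bp at 0.5 of its height. In bins it reached 1.78 at 4106001 to 4107000 and 1.44 at the tRNA gene, and 0.40 or less in every other bin from 4105001 to 4113000. It was therefore high close to the tRNA gene, at a level reached in no cdc25-22 array placed from a scanner file, and lacked the wide shoulders of ∆rad3 cdc25-22. With the value table in place of the scanner files, the difference was 1.81 for mug147 and 2.28 at the peak bins, and the bin at the tRNA gene was no longer called. Its call was also lost with 1 common MAD and with quantile normalization.

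**Figure D4:**
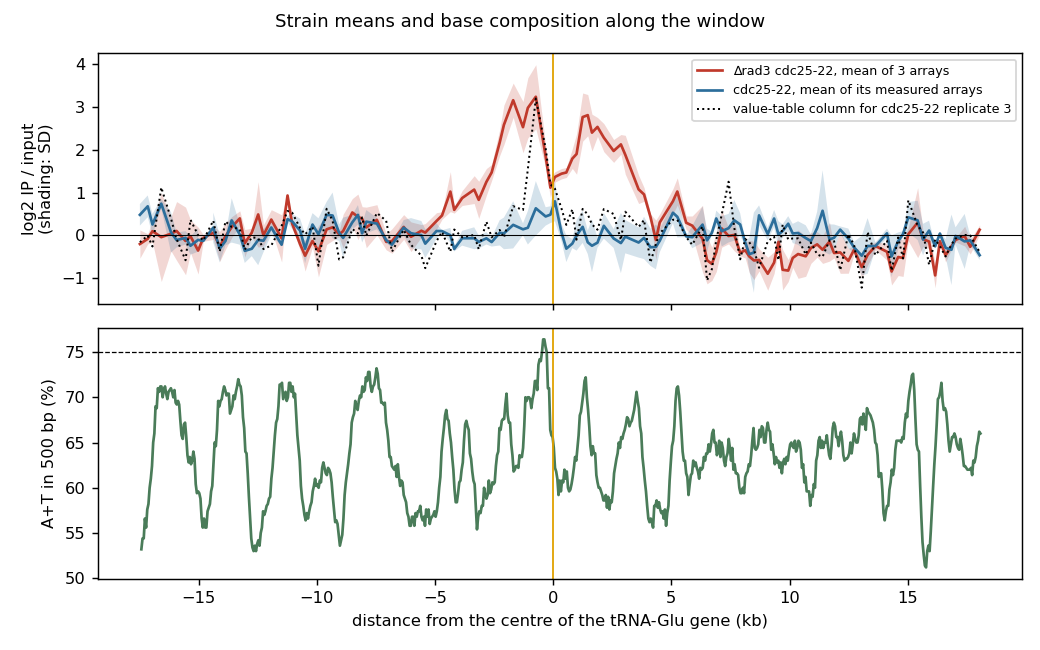
Upper panel, mean log2 IP over input of ∆rad3 cdc25-22 (red) and cdc25-22 (blue) with SD as shading, and the value-table column of cdc25-22 replicate 3 (dotted); lower panel, A+T percent in 500 bp windows; both by distance from the tRNA gene (vertical line) in kb. The A+T share passes the dashed line at 75% once, just left of the tRNA gene, with a highest value of 76.4%.

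The base composition of the domain was that of the chromosome, apart from 1 AT-rich island. The window held 63.6% A+T, the domain 64.0% and chromosome II 64.1%, and the 3980 bp between mug147 and SPBC56F2.05C held 65.3%. With islands defined as 500 bp windows of at least 75% A+T, merged, the window had 1, 700 bp long and overlapping the tRNA gene by 12 bp. The 3 chromosomes had 428 islands, or 1 per 29.4 kb, so 1 in a window of this length is near the genome's density. It reached from the right part of the left maximum to the tRNA gene, and 3 probes overlapped it.

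Across the 128 probes of the window the Pearson correlation of the strain mean with the A+T share of the surrounding 500 bp was 0.15 in ∆rad3 cdc25-22 and 0.21 in cdc25-22. With the A+T share of the probe itself it was -4.95e-05 in ∆rad3 cdc25-22 and 0.32 in cdc25-22. These describe neighbouring probes that share DNA fragments and arrays. The space between mug147 and SPBC56F2.05C also holds 5 annotated long non-coding RNA genes, and the longest, SPNCRNA.1669 (2258 bp, minus strand), spans the tRNA gene and the right maximum.

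Other genes of the same families were read beside the locus. Of 91 annotated mug genes 75 were in the fit, of which 10 (13.3%) were called higher in ∆rad3 cdc25-22 and 1 (1.33%) lower, beside 10.6% and 5.48% of all genes. Their median difference was 0.03, against -0.06 over all genes in the fit. Mug147, 1 of the 10, was chosen on this contrast, so nothing is read from its rank, first of the 75. Next came mug114 (chrI:2662988-2664979), at 1.22, 1.26 and 1.24 in ∆rad3 cdc25-22, against 0.37, 0.02 and -0.43 in cdc25-22, and mug116 (chrI:1494670-1495830), at 1.34, 0.88 and 1.16 in ∆rad3 cdc25-22, against -0.26, -0.13 and 0.20 in cdc25-22. Both rose in the limma fit, by 1.25 ± 0.17 (SE, adjusted p = 0.0012) and 1.19 ± 0.15 (SE, adjusted p = 0.000916). The lowest were mug191, which fell by 0.37 ± 0.10 (SE, limma adjusted p = 0.0331, a call that held only without ∆rad3 cdc25-22 replicate 1 of the 6 arrays left out in turn), and mug94 and mug129 with differences of -0.31 and -0.28 (limma adjusted p = 0.21 and 0.158).

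Of 10 glutamate tRNA genes, 6 lay in measured bins, and 2 of these bins were called higher, where 12.3% of all bins were. One of the 2 is the bin at SPBTRNAGLU.08 itself, which was chosen on this contrast. The median bin difference was 0.12, against -0.05 over all bins. By the probes within 500 bp, SPBTRNAGLU.08 ranked second by the difference. SPCTRNAGLU.10 on chromosome III came first, at 2.17, 2.26 and 1.93 in ∆rad3 cdc25-22, against 0.69, 0.89 and 1.25 in cdc25-22 (2 probes). SPATRNAGLU.01 and SPATRNAGLU.02 on chromosome I differed by 0.26 and -0.02 with overlapping arrays. SPBTRNAGLU.05 on chromosome II and SPCTRNAGLU.09 on chromosome III were lower in ∆rad3 cdc25-22, by differences of -0.31 and -0.39 without overlap. A high ratio in ∆rad3 cdc25-22 was thus not shared by all measured glutamate tRNA genes. By the level in cdc25-22, where the 6 had a median of 0.36, SPBTRNAGLU.08 ranked 3.

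**Figure D5:**
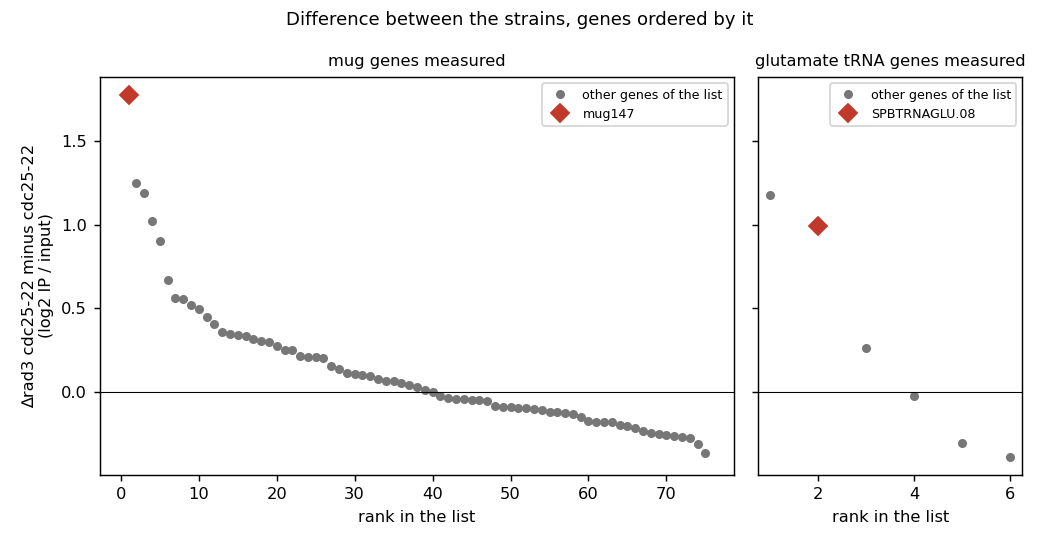
Difference in log2 IP over input between ∆rad3 cdc25-22 and cdc25-22 (vertical axis) for the 75 measured mug genes (left) and the 6 measured glutamate tRNA genes (right), ordered by it. Mug147 stands first at 1.78 and SPBTRNAGLU.08 second at 0.995, and most mug genes lie near 0.

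Outside the window, the genes whose values on the 6 arrays lay closest to those of mug147, by root mean square difference over 4115 genes, were wwm3 at 0.23, SPAPJ695.02 at 0.27, mim2 at 0.30, opi10 at 0.31 and pof2 at 0.31. Wwm3 (chrII:202281-203623) stood at 1.21, 1.84 and 2.09 in ∆rad3 cdc25-22, against 0.09, 0.14 and 0.04 in cdc25-22. All 5 stood at 0.98 or more on every ∆rad3 cdc25-22 array and at 0.50 or less on every cdc25-22 array, with differences of 1.32 to 1.70.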

How the data were processed

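Rad52 ChIP-on-chip was read on 6 arrays, 3 per strain. The scanner files come from Agilent Feature Extraction 10.7.3.1, per the submitters' processing notes, and per the file headers the deposited intensity signals were background-subtracted and dye-corrected. Set against the scanner files, the deposited table of values proved to be a linear ratio (IP over input). The labels speak of RNA extraction, although the assay reads DNA.

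Log2 of green over red processed signal was centred on the median of each array, and control and outlier spots were left out. Files were assigned by the value-table column that they equal. Bins of 1 kb and protein-coding genes, with 2 or more probes on all arrays, went into separate limma 3.58.1 fits (R 4.3.3). Each fit covered both strains, with Benjamini-Hochberg adjustment and a threshold of 0.05, after a check on simulated data. The rad3 gene was left out of the genes, and probes within 1 kb of it out of the bins. Genes also had to lie in 50 kb segments whose probe positions matched the assembly. This left out the genes of chromosome I from 3750001 on, where positions were off by 6149 or 6150 bp. Bins there were kept at the array's positions. Profiles used Python 3.11.15, numpy 2.4.6, pandas 2.3.3 and matplotlib 3.10.9. With 3 arrays a strain, the number of arrays limits the precision.

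The file headers name an older genome version. In the window, shifting probe positions by up to 7 kb along ASM294v3 left the G+C share of probes least spread at 0 bp (SD 2.71%, median over shifts 8.06%), and no probe was aligned.

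Equal replicate numbers mark a shared slide, per the file headers, and the deviations of such pairs correlated at 0.277, 0.198 and 0.174 over 11906 bins. The differences within slides and the replicate block used these pairs. The main limma fits did not, so their SEs, p-values and calls ignore the pairing.

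Named were all genes of the window, the 5 genes most like mug147 by root mean square difference, and the 3 highest and 3 lowest of each list. The locus, its members and the lists were chosen with earlier results of these data known. The sequence of 1 further stretch is not reported here. Alternatives covered file placement, the value table, the replicate block, scaling, quantile normalization, normexp (offset 50, on median spot signals, since no mean signal was at hand), dim and flagged probes, bin size, probe minimum, running mean and each left-out array.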

Additional observations from a re-analysis of the deposited data

Results flagged for a closer look

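The value-table column labelled cdc25-22 replicate 3 matches no scanner file and enters no comparison between the strains made from them. Its highest running mean in the window was 1.81, at 4107355, above the 0.51, 0.55 and 0.85 of the 3 cdc25-22 arrays and below the 2.41, 2.78 and 3.51 of the ∆rad3 cdc25-22 arrays. What separates this column from that sample's own scanner file was not tested. Groups of 3 arrays are too small for the check on outlying samples.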

How the results depend on the processing

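Of 136 recomputed values, 102 were classed as the same as the main value, 30 as moved and 4 as reversed. A value classed as the same could still differ in size. With running means of 9 probes the summit height was 2.36, against 2.90 in the main setting. All 4 reversals came from placing the files under their listed names, which gave differences of -0.089 for the window mean, -0.67 for mug147, -0.71 for the peak bins and -0.22 for the domain's input, 0 called bins and genes in either direction by limma (at an unadjusted p under 0.05, 1 window bin was lower, 0 higher, and 0 window genes passed), and a summit of 1.2001 at 4106603. The value table left 1 lower bin and 0 lower genes, normexp 0 lower genes, and bins of 2 kb 5 higher bins. The window mean became 0.26 with 1 common MAD, 0.21 with quantile normalization, 0.36 with normexp and 0.40 without dim probes; quantile normalization gave 1.51 for mug147 and 2.04 for the peak bins. The summit lay at 4106603 and 4105982 with running means of 3 and 9 probes, and the width was 2485 bp with 3 probes and 8467 bp at 0.5 log2. Leaving out each array gave 8 to 9 higher and 1 to 6 lower bins, and 2 to 3 higher and 0 to 3 lower genes. Without cdc25-22 replicate 1, replicate 2, or ∆rad3 cdc25-22 replicate 2 or replicate 3, 0 lower genes were left, so the lower gene calls depend on these arrays. Of the lower bins, 4117001 to 4118000, inside utp20, was called in all 6 fits with 1 array left out. The bins 4090001 to 4091000 and 4116001 to 4117000 were called in 2 of these 6 fits each. The window mean ranged from 0.28 to 0.33, mug147 from 1.69 to 1.88, the peak bins from 2.21 to 2.65, the summit from 2.60 to 3.14, always at 4106397, the input from 0.44 to 0.60 and the width from 2485 bp (without ∆rad3 cdc25-22 replicate 2) to 6441 bp. The replicate block, which pairs the arrays of a slide, gave 8 higher and 4 lower bins and 3 higher and 3 lower genes. Leaving out spots with background flags, an alternative chosen after seeing the data, gave 6 higher and 3 lower bins. Except where the setting itself changes the samples or bins, the cause was not tested. Dim input on ∆rad3 cdc25-22 replicate 2, where 23 window probes were not well above background, limits values there.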
